A study of Mus musculus with 4 samples.

Results

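Type I interferon-stimulated genes are the antiviral effectors, sensors and feedback regulators that cells switch on after interferon alpha or beta. A list of 42 of them was followed here in mouse dendritic cells treated with SAHA, and 38 were measured, among 18194 genes in all. The list was drawn up by gene name, with earlier results of these data known. Where a gene had several probe sets, the one with the brightest average across the 4 arrays stood for it. Isg15 and Ifi205 were matched only by probe sets shared with other genes and were not used, and Oas1g and Ifi44 were not analysed here.

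The cells were grown from bone marrow of C57BL/6 mice, at least 3 mice per experiment, for 7 days in medium holding GM-CSF and IL-4 (10 ng/ml of either), and CD11c-positive cells were selected to a stated purity of 95%. The SAHA group (2 arrays) received SAHA at a dose labelled 500 nm for 12 hours, and the control group (2 arrays) received diluent for the same time. SAHA (vorinostat) inhibits histone deacetylases, which strip acetyl marks from histones and from many further proteins. No interferon, virus or Toll-like receptor agonist is named for either group. The labels call the arrays biological replicates and do not say whether arrays with the same number shared a marrow pool, so p-values reflect only how far these arrays differed, which may be technical.

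Interferon alpha and beta bind a receptor made of IFNAR1 and IFNAR2, and the kinases JAK1 and TYK2 then activate a transcription factor complex that contains STAT2 and IRF9. That complex binds interferon-stimulated response elements near its target genes. Myeloid cells also keep a low, tonic output of interferon beta, so these genes can be expressed without infection.

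Of the 10 dendritic cell markers, all lay above the 25th percentile of their array on every array, and the integrin gene Itgax that encodes CD11c had log2 values of 13.16 and 12.46 in SAHA cells and 13.40 and 12.44 in control cells. Here and below the value of replicate 1 is given before that of replicate 2. Cd209a was dim, at 4.55 and 4.47 in SAHA cells and 4.57 and 4.68 in control cells. Array medians lay between 5.34 and 5.35 log2 units. Arrays give no read depth, and 2 arrays per group limit the precision of every value.

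The response element was looked for in the RefSeq promoters (GRCm38.p6), each running from 250 bases before to 50 bases after a gene's start. The core of the element, a pair of GAAA with any 2 bases between, was searched on either strand and stood in the promoters of 11 of the 29 measured members that had one in the table, or 37.9%, against 1079 of 27025 genes, or 3.99%. A second motif, the gamma-activated sequence TTCNNNGAA, which reads the same on both strands, stood in 8 of the 29, or 27.6%, against 9.55% of all genes. Matches of the 2 motifs overlapped in Bst2 and Ifitm3. The 9 members below carry the element core wholly before the start, and they are shown because interferon is known to act on its target genes through this element. Capitals mark the matched letters, which read TTTC where the element lies on the other strand, and every stretch is given in the direction of its gene.
Ifit1 (chr19:34640775-34640823, plus strand): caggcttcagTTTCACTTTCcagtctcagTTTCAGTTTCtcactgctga
Ifit3 (chr19:34583363-34583426, plus strand): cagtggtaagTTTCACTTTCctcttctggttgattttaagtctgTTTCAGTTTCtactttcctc
Oas1a (chr5:120907526-120907555, minus strand): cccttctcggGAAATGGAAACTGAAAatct
Oas3 (chr5:120777715-120777744, minus strand): gcagggaggaGAAAACGAAAgtgaagggag
Rsad2 (chr12:26456553-26456582, minus strand): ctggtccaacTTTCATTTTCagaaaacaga
Bst2 (chr8:71537577-71537612, minus strand): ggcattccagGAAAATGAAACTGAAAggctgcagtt
Ifitm2 (chr7:140955988-140956017, minus strand): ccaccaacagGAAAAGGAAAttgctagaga
Ifi203 (chr1:173942508-173942537, minus strand): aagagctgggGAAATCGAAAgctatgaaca
Trim30a (chr7:104465210-104465239, minus strand): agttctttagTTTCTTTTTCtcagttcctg

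The 3 members with the largest change between the groups, Ube2l6, Nmi and Cmpk2, had no such match in the window, and their last 100 bases before the start are shown for contrast.
Ube2l6 (chr2:84798728-84798827, plus strand): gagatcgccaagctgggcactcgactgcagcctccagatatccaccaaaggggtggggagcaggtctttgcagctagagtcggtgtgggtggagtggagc
Nmi (chr2:51973209-51973308, minus strand): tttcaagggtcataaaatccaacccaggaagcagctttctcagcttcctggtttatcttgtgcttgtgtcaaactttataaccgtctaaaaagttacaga
Cmpk2 (chr12:26469115-26469214, plus strand): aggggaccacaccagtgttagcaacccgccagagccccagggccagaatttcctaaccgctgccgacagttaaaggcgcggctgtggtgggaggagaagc
A match is a description of the letters in this window and says nothing of binding.

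Among the interferon-stimulated genes 1 passed the test between SAHA and control cells. All 38 measured members lay above the 25th percentile of their array on every array, as did 14627 of the 18194 genes, each by the brightest of its probe sets. With SAHA, Ifitm2 passed as higher, and no member passed as lower (limma across all genes without a replicate block, Benjamini-Hochberg adjusted p under 0.05). This made 1 of 38 members, or 2.63%, where 2.23% of all genes passed, with 1.52% higher and 0.709% lower in SAHA cells. In this model the share of members was thus near that of all genes. The calls depended on the model. With replicate number as a block, 11 of the 38 members passed higher and 8 lower, where 10.7% and 9.13% of all genes did. The share of members was then above that of all genes, of which 19.9% passed in either direction. The labels do not tie a number to a shared culture, so calls and p-values here and below are without that block. At an unadjusted p under 0.05 there were 7 of the 38 members, 4 higher and 3 lower, beside 3287 of all 18194 genes. The log2 changes ran from -1.18 to 1.02, with 20 members above 0 and 18 below, and their median was 0.02, beside -0.05 over all genes. That median was 0.28 without SAHA replicate 1 and 0.40 without control replicate 2, but -0.21 without SAHA replicate 2 and -0.28 without control replicate 1.

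**Figure D1:**
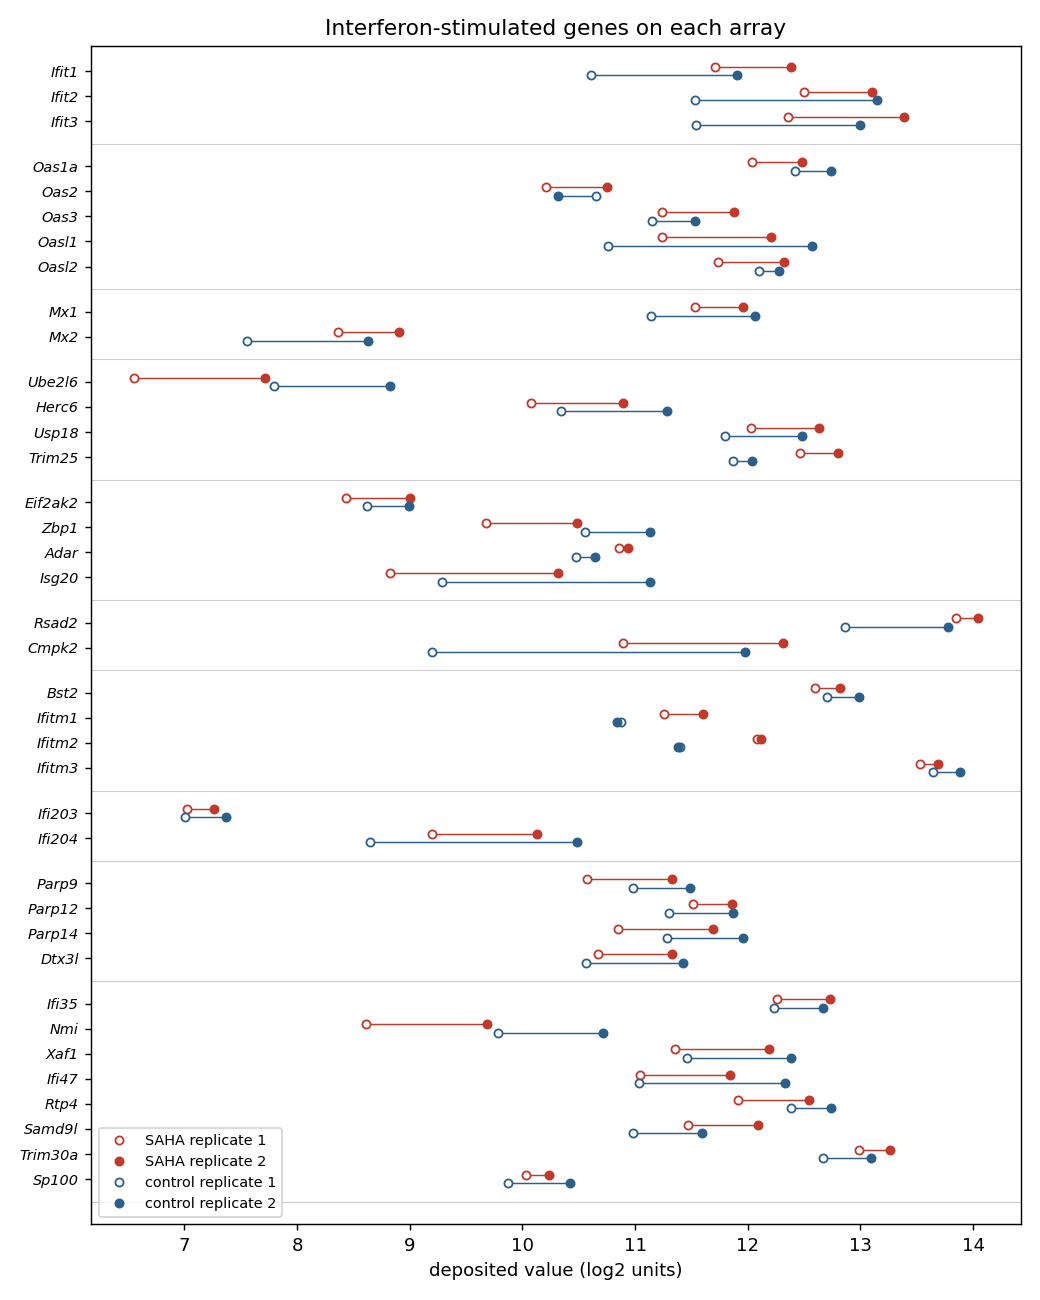
Deposited log2 value of each of the 38 measured genes on each array, in blocks by role, with SAHA in red above control in blue, replicate 1 as open and replicate 2 as filled circles, and a line joining the arrays of a group. The filled circle lies right of the open one in both groups for 35 of 38 genes, and the red and blue pairs are fully apart for 8.

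The larger difference lay between the replicate numbers. In both groups replicate 2 had higher values than replicate 1 for 35 of the 38 members, or 92.1%, where 37.8% of all genes did so. The exceptions were Oas2, Ifitm1 and Ifitm2, each higher in replicate 2 of the SAHA group but not in replicate 2 of the control group. The members also had 21 further probe sets, for 14 genes, and 19 of these were higher in replicate 2 of both groups. For the change with SAHA, 17 of the 21 had the sign of the chosen probe set. The median difference between the arrays was 0.61 log2 units in SAHA cells and 0.60 in control cells, beside 0.03 and 0.03 over all genes. For 18 of the 38, or 47.4%, the difference exceeded 0.5 log2 units in both groups, which held for 1.12% of all genes. No member was lower in replicate 2 by that much in both groups, while 1.48% of all genes were. For 32 of 38 members the larger of the 2 differences between arrays of a group exceeded the change with SAHA in size, where this was so for 62% of all genes. The 6 others were Ube2l6, Trim25, Adar, Ifitm1, Ifitm2 and Nmi.

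Cmpk2 showed the widest spread among the members. It encodes a mitochondrial nucleotide kinase that supplies CTP, and its neighbour Rsad2 encodes viperin, which turns CTP into a chain-terminating antiviral nucleotide. Cmpk2 had log2 values of 10.89 and 12.31 in SAHA cells and 9.20 and 11.97 in control cells. Its arrays thus lay 2.67-fold apart in SAHA cells and 6.86-fold apart in control cells, and the groups overlapped. The change with SAHA was 1.02 ± 0.88 (SE, adjusted p = 0.584), and it was -0.37 without control replicate 1. Rsad2 had values of 13.84 and 14.05 in SAHA cells and 12.87 and 13.78 in control cells. Both SAHA arrays were above both control arrays, by little over control replicate 2. Its change was 0.62 ± 0.28 (adjusted p = 0.306), and without control replicate 2 it was 1.08 and passed (adjusted p = 0.0188). The further probe sets of Rsad2 gave 0.87 and 0.91, and that of Cmpk2 gave 0.72.

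**Figure D2:**
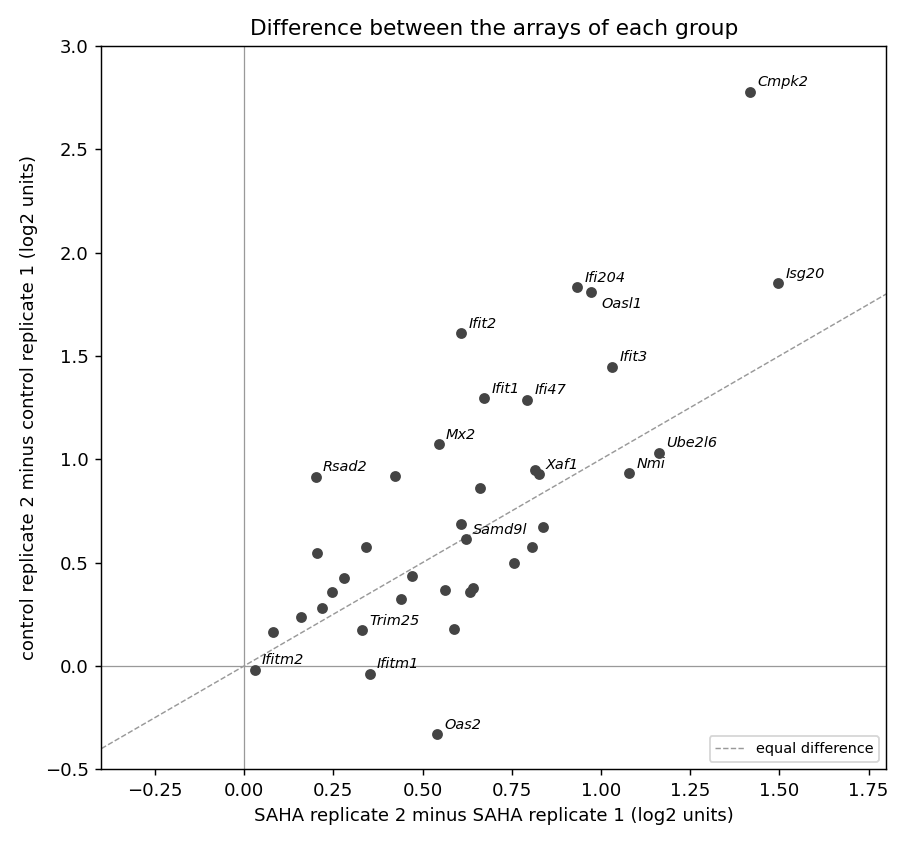
Difference between the arrays of a group in log2 units for each of the 38 genes, SAHA replicate 2 minus replicate 1 on the horizontal and control replicate 2 minus replicate 1 on the vertical axis, with a dashed line of equal difference. Most points lie above 0 on both axes, Cmpk2 is farthest out at 1.42 and 2.78, and Ifitm2 lies at 0.03 and -0.02.

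The IFIT proteins bind viral RNA in the cytoplasm and block its translation. None of the 3 genes passed the test, and with all 4 arrays each had a positive change. Ifit1 had log2 values of 11.71 and 12.38 in SAHA cells and 10.61 and 11.91 in control cells, a change of 0.79 ± 0.42 (SE, adjusted p = 0.386). SAHA replicate 1 lay below control replicate 2, so the groups overlapped. Without control replicate 2 the change of Ifit1 was 1.44 and passed (adjusted p = 0.0441), as it did for no other IFIT gene. Ifit2 had values of 12.50 and 13.11 in SAHA cells and 11.54 and 13.15 in control cells, and its change was 0.46 ± 0.49 (adjusted p = 0.659). Ifit3 had values of 12.36 and 13.39 in SAHA cells and 11.55 and 12.99 in control cells, a change of 0.60 ± 0.51 (adjusted p = 0.571). In all 3 genes control replicate 1 was the lowest of the 4 arrays, and the arrays of the control group lay 1.30 to 1.61 log2 units apart.

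The OAS enzymes sense double-stranded RNA and make oligoadenylates that activate RNase L. Not every protein of the family need be such an enzyme, and none of the 5 measured genes of the family passed the test. Oas1a had log2 values of 12.04 and 12.48 in SAHA cells and 12.42 and 12.74 in control cells, with a change of -0.32 ± 0.18 (adjusted p = 0.414). Its probe set cannot be taken to separate it from its close paralogs. Oas3 had values of 11.24 and 11.88 in SAHA cells and 11.15 and 11.53 in control cells, with a change of 0.22 ± 0.24 (adjusted p = 0.666). The other 3 genes of the family, Oas2, Oasl1 and Oasl2, had changes of -0.0047, 0.06 and -0.16. Oasl1, known in mice to restrain the translation of Irf7, differed more between arrays, by 0.97 log2 units in SAHA cells and 1.81 in control cells.

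MX proteins are dynamin-like GTPases that trap viral components, and the C57BL/6 strain is known to carry defective alleles, so the transcripts report induction rather than a working protein. Mx1 had log2 values of 11.53 and 11.95 in SAHA cells and 11.14 and 12.06 in control cells, a change of 0.14 ± 0.30 (adjusted p = 0.836). Mx2 had values of 8.36 and 8.91 in SAHA cells and 7.56 and 8.63 in control cells, a change of 0.54 ± 0.36 (adjusted p = 0.484). The groups overlapped for both genes, with control replicate 1 lowest.

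ISG15 is a ubiquitin-like protein, and none of the 4 measured genes that attach or remove it passed the test. Ube2l6, the conjugating enzyme for ISG15, had log2 values of 6.55 and 7.71 in SAHA cells and 7.80 and 8.83 in control cells. Both SAHA arrays were below both control arrays, and the difference within each replicate number was -1.25 and -1.12. The change of -1.18 ± 0.46 was the most negative among the members and missed the threshold (adjusted p = 0.248, 95% interval -2.28 to -0.08). Trim25, a ubiquitin ligase that activates the RNA sensor RIG-I and can also attach ISG15, had values of 12.47 and 12.80 in SAHA cells and 11.87 and 12.04 in control cells. Its SAHA arrays were both above its control arrays, with a change of 0.68 ± 0.15 (adjusted p = 0.0789), and its further probe sets gave 0.67 and 0.42. The probe set that stood for it is of a type that can match other transcripts. The ligase gene Herc6 had a change of -0.33, and Usp18, whose product removes ISG15 and blunts receptor signalling, a change of 0.19, neither past the threshold.

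None of the 4 genes for sensing, editing and degrading RNA passed the test. Zbp1, a sensor of Z-form nucleic acids that can start necroptosis, had log2 values of 9.68 and 10.49 in SAHA cells and 10.56 and 11.13 in control cells. Its SAHA arrays were both below its control arrays, narrowly so for SAHA replicate 2, and the change of -0.76 ± 0.30 did not pass (adjusted p = 0.259). By its further probe set the change was -0.42, and there the groups overlapped. Adar, which edits adenosine to inosine in double-stranded RNA, had values of 10.86 and 10.94 in SAHA cells and 10.48 and 10.64 in control cells, a change of 0.34 ± 0.13 (adjusted p = 0.249). The SAHA arrays of Adar were both above its control arrays, though its further probe sets gave -0.15 and 0.54. Isg20, an RNA exonuclease, had values of 8.82 and 10.32 in SAHA cells and 9.29 and 11.14 in control cells, a change of -0.64 ± 0.68 (adjusted p = 0.658). Its arrays differed 2.82-fold in SAHA cells and 3.61-fold in control cells, and the groups overlapped. Eif2ak2, the kinase PKR that halts translation, had values of 8.44 and 9.003 in SAHA cells and 8.62 and 8.99 in control cells, a change of -0.09 ± 0.23 (adjusted p = 0.871).

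Among the membrane proteins that keep viruses out or hold them back, 1 IFITM gene passed the test, and the arrays of a group lay within 0.35 log2 units of each other for all 3. Ifitm2 had log2 values of 12.09 and 12.12 in SAHA cells and 11.40 and 11.38 in control cells, so the arrays of a group agreed within 0.03 log2 units. The rise was 1.64-fold (log2 change 0.71 ± 0.11, SE, adjusted p = 0.0388). It passed in every setting with all 4 arrays except a floor at the 20th percentile (adjusted p = 0.158), and it missed the threshold without each of the 4 arrays in turn (adjusted p 0.0626 to 0.232), with the change at 0.70 to 0.72. Ifitm1 had values of 11.25 and 11.60 in SAHA cells and 10.87 and 10.84 in control cells, a change of 0.57 ± 0.15 (adjusted p = 0.125), and its groups did not overlap. Ifitm3 had values of 13.53 and 13.69 in SAHA cells and 13.64 and 13.88 in control cells, a change of -0.16 ± 0.12 (adjusted p = 0.540). IFITM proteins block the fusion of viruses with endosomal membranes, and the 3 genes are neighbours on chromosome 7. Bst2, or tetherin, which holds budding virus at the cell surface, had values of 12.60 and 12.82 in SAHA cells and 12.70 and 12.99 in control cells, a change of -0.14 ± 0.14 (adjusted p = 0.654). For Ifitm3 and Bst2 the groups overlapped.

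Of the p200 family, Ifi204, a DNA sensor related to human IFI16, had log2 values of 9.20 and 10.13 in SAHA cells and 8.65 and 10.48 in control cells. The control arrays thus enclosed the SAHA arrays, and the change was 0.10 ± 0.59 (adjusted p = 0.944). Ifi203 had values of 7.02 and 7.27 in SAHA cells and 7.01 and 7.37 in control cells, a change of -0.04 ± 0.19 (adjusted p = 0.926). Members of this family are similar in sequence, and the array may not separate them fully.

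Parp9 and Dtx3l encode partners in a complex that ADP-ribosylates and ubiquitinates its targets, and Parp12 and Parp14 encode further ADP-ribosyltransferases. Parp9 had log2 values of 10.57 and 11.33 in SAHA cells and 10.98 and 11.48 in control cells, a change of -0.28 ± 0.28 (adjusted p = 0.630). Dtx3l had values of 10.67 and 11.33 in SAHA cells and 10.56 and 11.43 in control cells, a change of 0.0030 ± 0.33 (adjusted p = 0.998). The partners thus had intervals that both took in 0, from -0.96 to 0.39 for Parp9 and from -0.78 to 0.79 for Dtx3l. Parp12 had values of 11.52 and 11.86 in SAHA cells and 11.30 and 11.87 in control cells, a change of 0.10 ± 0.22 (adjusted p = 0.835). Parp14 had values of 10.85 and 11.69 in SAHA cells and 11.28 and 11.95 in control cells, a change of -0.35 ± 0.32 (adjusted p = 0.610). The groups overlapped for all 4 genes.

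None of the other induced genes passed the test, and Nmi had the most negative change among them. Nmi encodes a protein that partners with the product of Ifi35 and takes part in innate signalling. It had log2 values of 8.61 and 9.69 in SAHA cells and 9.78 and 10.71 in control cells, and both SAHA arrays were below both control arrays. The change was -1.10 ± 0.42 (adjusted p = 0.242, 95% interval -2.11 to -0.09), with -1.17 and -1.02 within the replicate numbers. Ifi35 had a change of 0.04. Samd9l, an inhibitor of translation that restricts some viruses, had values of 11.47 and 12.09 in SAHA cells and 10.98 and 11.60 in control cells, a change of 0.49 ± 0.27 (adjusted p = 0.401). Its groups overlapped, although SAHA exceeded control by 0.48 and 0.49 within the numbers. The remaining genes were Xaf1 (-0.15), the GTPase gene Ifi47 (-0.24), Rtp4 (-0.33), Trim30a (0.25) and the nuclear body gene Sp100 (-0.01), none past the threshold. A further, dimmer probe set of Xaf1 gave 0.43.

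**Figure D3:**
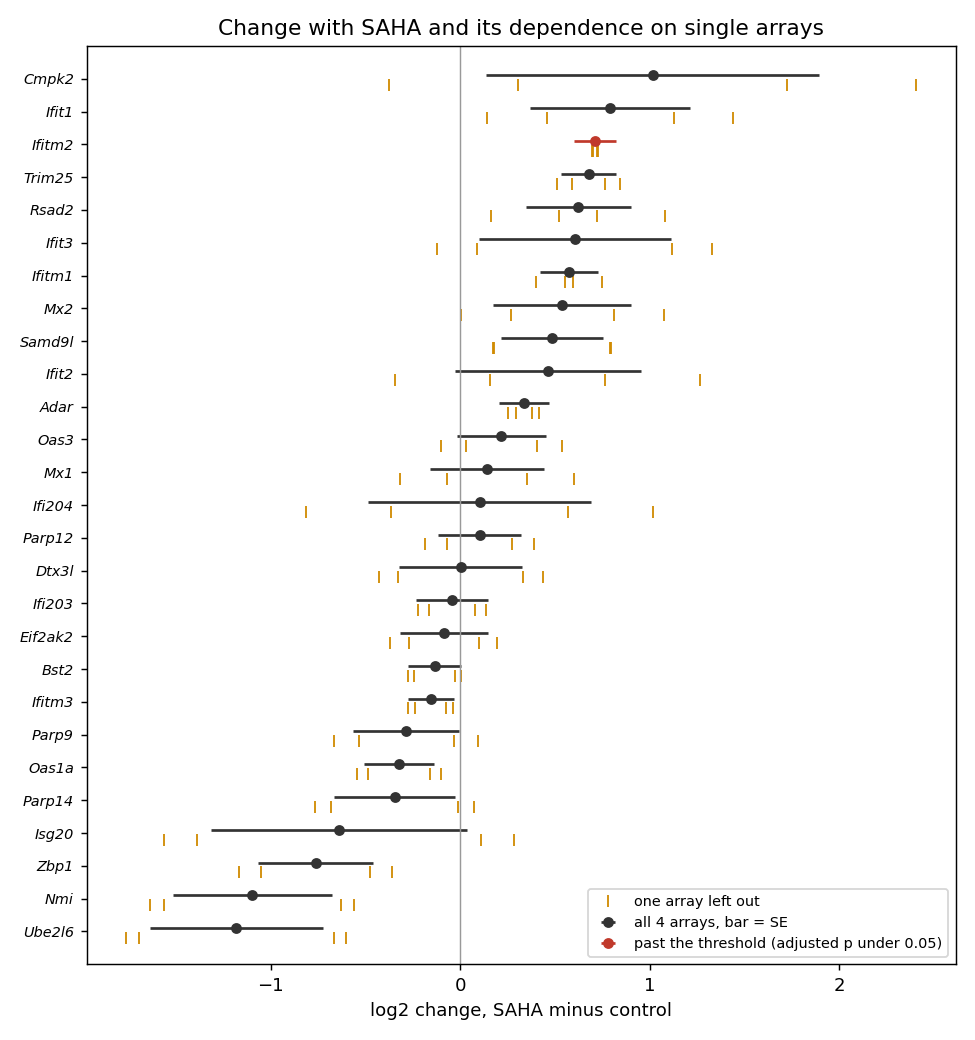
Log2 change, SAHA minus control, for the 27 genes described one by one, with all 4 arrays as points with SE bars (Ifitm2, past the threshold, in red) and with each array left out in turn as ticks. The ticks of 14 genes lie on both sides of 0, those of Ifitm2 lie between 0.70 and 0.72, and those of Cmpk2 between -0.37 and 2.40.

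Between same-numbered arrays 14 members were higher in SAHA cells in both replicate numbers, where 29.6% of all genes were. A further 12 members were lower in both, where 42.3% of all genes were, and 12 had opposite signs, where 28.1% of all genes did. The 14 were Ifit1, Ifit3, Oas3, Mx2, Usp18, Trim25, Adar, Rsad2, Cmpk2, Ifitm1, Ifitm2, Ifi35, Samd9l and Trim30a. The 12 on the lower side were Oas1a, Ube2l6, Herc6, Zbp1, Isg20, Bst2, Ifitm3, Parp9, Parp14, Nmi, Xaf1 and Rtp4. Over all 38 members, 5 had both SAHA arrays above both control arrays, where 21.1% of all genes did. Only 3 of the 38 had both SAHA arrays below both control arrays, where 29.6% of all genes did. The median difference over the members was 0.10 in replicate 1 and -0.07 in replicate 2. Of the 12 members with opposite signs, 9 were higher with SAHA in replicate 1 and 3 in replicate 2. The difference was farther from equal for Cmpk2, at 1.70 in replicate 1 and 0.34 in replicate 2, and for Ifit2, at 0.96 and -0.04, than for any other member. With 1 array per group and number, whether the change differed between the numbers could not be tested.

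**Figure D4:**
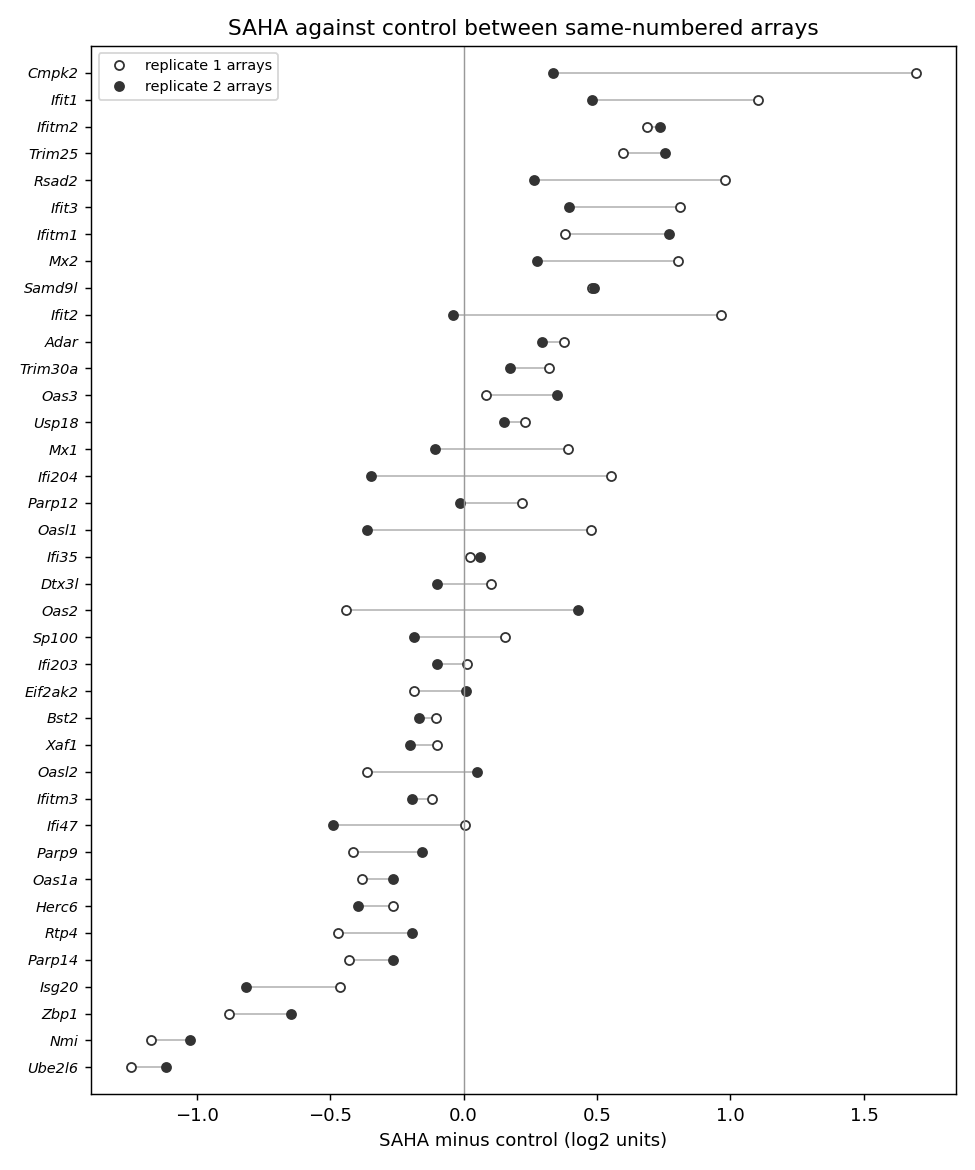
Difference SAHA minus control in log2 units between the replicate 1 arrays (open circles) and between the replicate 2 arrays (filled circles) for the 38 genes, ordered by their mean change. Ube2l6 and Nmi lie below -1 in both, Ifitm2 lies at 0.69 and 0.73, and 12 genes have circles on both sides of 0.

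The genes that make and relay interferon gave no call, and neither did a further list of interferon-stimulated genes. In these 4 lists with 58 measured genes, 38 of them on that further list, limma called none. An unadjusted p under 0.05 was found for 8 of the 58, beside 3287 of all 18194 genes. Among 8 measured type I interferon genes, 3 lay under the 25th percentile on every array. Ifnb1, which encodes interferon beta, had log2 values of 4.58 and 5.25 in SAHA cells and 4.82 and 6.13 in control cells, a change of -0.56 ± 0.43 (adjusted p = 0.534). Replicate 2 was thus the higher array of each group, by 0.67 log2 units in SAHA cells and 1.30 in control cells. Apart from control replicate 2, however, the values of Ifnb1 lay under the lowest array median of 5.34. Ifna1 followed it by size of change, with -0.27 (adjusted p = 0.495).

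Of the 7 measured receptor and signalling genes none passed the test, and Irf7 had the largest change. The receptor chains Ifnar1 and Ifnar2 had changes of 0.05 ± 0.16 (adjusted p = 0.893) and 0.20 ± 0.11 (adjusted p = 0.401). The kinases Jak1 and Tyk2 both had changes of 0.17, and the transcription factors Stat2 and Irf9 had -0.17 and -0.08, none past the threshold. Irf7, the factor that amplifies interferon production, had values of 11.92 and 12.61 in SAHA cells and 12.68 and 13.28 in control cells, a change of -0.71 ± 0.27 (adjusted p = 0.246). Its SAHA arrays were both below its control arrays, and it was -0.76 and -0.66 within the replicate numbers. Of these 7 genes 4 were higher in replicate 2 of both groups, whereas Ifnar2 and Tyk2 were lower there, by 0.04 and 0.13 in SAHA cells and by 0.02 and 0.10 in control cells.

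For the type II and III interferon receptors, 5 genes on that list were measured. Il10rb had the largest change, -0.53 ± 0.13 (adjusted p = 0.110), and Ifngr1, a chain of the interferon gamma receptor, had 0.48 ± 0.15 (adjusted p = 0.169).

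Of a further list of 38 interferon-stimulated genes outside the 42 none passed with SAHA. Between same-numbered arrays 8 of the 38 were higher in SAHA cells in both replicate numbers, where 29.6% of all genes were. A further 19 were lower in both, where 42.3% of all genes were. In both groups 34 of the 38 were higher in replicate 2, where 37.8% of all genes were. For 11 of them this exceeded 0.5 log2 units in both groups, which held for 1.12% of all genes. Among the 11 were the chemokine gene Cxcl10, by 1.10 in SAHA cells and 2.80 in control cells, and the helicase gene Ddx60, by 1.13 and 1.18. The largest changes with SAHA were -0.86 for Trim14 (adjusted p = 0.140) and -0.85 for Ifi27 (adjusted p = 0.267), and Ifi27 was lower in replicate 2 of both groups.

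Cell type markers also moved with the replicate number. Of the 10 dendritic cell markers 7 were higher in replicate 2 of both groups, where 37.8% of all genes were. In 0 of the 10 did this exceed 0.5 log2 units in both groups. Itgax had differences, replicate 2 minus replicate 1, of -0.70 in SAHA cells and -0.96 in control cells. Of 8 macrophage markers 6 were higher in replicate 2 of both groups. Their summed linear values were 29798 and 41304 in SAHA cells and 31311 and 41379 in control cells. The complement gene C1qa was higher by 1.34 log2 units in SAHA cells and 1.30 in control cells, and Fcgr1, an Fc receptor gene, by 1.53 and 1.31. The scavenger receptor gene Marco had differences the other way, replicate 2 minus replicate 1, of -1.15 in SAHA cells and -1.22 in control cells, and Cd68 had -0.0456 and -0.0969. Of 8 plasmacytoid dendritic cell markers 6 were higher, with sums of 1174 and 1524 in SAHA cells and 1187 and 1583 in control cells. Without Lair1, the brightest of them, the sums were 892 and 1007 in SAHA cells and 704 and 747 in control cells. Their defining gene Siglech lay at 4.84 and 5.005 in SAHA cells and 4.85 and 4.97 in control cells. Of 5 NK cell markers 4 were higher, with sums of 749 and 1484 in SAHA cells and 650 and 1107 in control cells, although the defining gene Ncr1 lay between 4.24 and 4.44. Klrk1 carried most of these sums, which were 70.4 and 76.8 in SAHA cells and 73.8 and 80.4 in control cells without it. Lists for T cells (3 of 5 higher), B cells (1 of 4) and neutrophils (1 of 9) moved less or not in that direction. In bulk samples more cells of a type and more RNA per cell cannot be told apart, and the part of these cells in the differences between arrays was not tested. With SAHA, limma called 5 of 9 neutrophil markers lower and 1 higher, where 0.709% and 1.52% of all genes were called so. By sign alone 7 of the 9 were below 0 and 2 above. The marker called higher was Prtn3, with a log2 change of 3.65 (adjusted p = 0.0083). The sums over all 9 markers were 10541 and 8816 in SAHA cells and 8589 and 6275 in control cells. Mmp8, which did not pass (0.86, adjusted p = 0.143), carried most of these sums, and without it they were 2032 and 1920 in SAHA cells and 3138 and 2997 in control cells. The part of these markers in the rise of Ifitm2 was not tested.

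Members with and without the response element core in the promoter window were both higher in replicate 2, in 10 of 11 and in 17 of 18. Their median differences between arrays were 0.28 in SAHA cells and 0.37 in control cells with the core, and 0.64 and 0.90 without it. Their median changes with SAHA were 0.22 and 0.02, over ranges of -0.32 to 0.79 with the core and -1.18 to 1.02 without it. Of the 4 members whose stretches above carry a pair of matches, Ifit1 and Ifit3 differed by over 0.5 log2 units between arrays in both groups, and Oas1a and Bst2 did not. None of the 5 with a single match did so, whereas Ube2l6, Nmi and Cmpk2, which had none, did. These are descriptions of a window of fixed length, with no test.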

How the data were processed

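Total RNA (6 µg per array) was hybridised to Affymetrix arrays as biotinylated cRNA, per the labels' protocols. The deposited table gives a log2 value for every probe set and array, between 2.59 and 15.0, a scale inferred from the values. R 2.7 was used per the submitters' processing notes, while the summarisation of probes and the normalization are not given in the sources used here. Groups and replicate numbers came from the sample titles.

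Of 45101 probe sets 34958 had 1 gene symbol, updated through the Entrez identifier in the RefSeq table for 34754, and those with several or none were left out. SAHA and control were compared over 18194 genes with limma 3.58.1 in R 4.3.3 (lmFit, eBayes with an intensity trend, two-sided, no filter, no covariate), at a Benjamini-Hochberg adjusted p under 0.05. The procedure was tested on simulated arrays. SEs are limma's moderated standard errors, on the log2 scale. The members and lists were chosen with earlier results of these data known. All values are given for members past the threshold and the 2 largest changes per role group, or all members of groups of up to 4. Alternatives were eBayes without trend or robust, median centring, quantile normalization, low values raised to the 20th percentile, genes above the median level, mean probe sets, a replicate block, and each array left out.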

Additional observations from a re-analysis of the deposited data

How the results depend on the processing

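The count over all genes was 405, and it was 0 with a floor at the 20th percentile (limma, 3034 at an unadjusted p under 0.05) and 226 among genes above the median level, where fewer genes were tested. With 1 array left out it ran from 31 without SAHA replicate 1, with 90 without SAHA replicate 2, to 529 without control replicate 1. Members called higher were 1 with all arrays, 0 with the floor (4 at an unadjusted p under 0.05) and 0 to 2 with 1 array left out, and members called lower were 0 to 0 (3 unadjusted with all arrays). Genes called in the pathway lists were likewise 0 to 0 with 1 array left out (3 to 14 unadjusted). The members' median change then ran from -0.28 to 0.40. The count of members higher in replicate 2 of both groups was 35 or 36 with quantile normalization, median centring or mean probe sets.

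With replicate number as a block, 3616 of 18194 genes passed (19.9%), with 11 members higher and 8 lower and 18 genes of the pathway lists. Over all genes the difference between SAHA arrays correlated with that between control arrays (r = 0.567), and over the 38 members it did so too (r = 0.737). The labels do not tie a number to a shared culture, so calls were made without the block.

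With all 4 arrays 1 named gene changed sign, Dtx3l, at -0.0226 with quantile normalization and -0.00689 with median centring. With 1 array left out the change ran from -0.34 to 1.27 for Ifit2, -0.12 to 1.33 for Ifit3, -0.10 to 0.54 for Oas3, -0.32 to 0.60 for Mx1, -0.37 to 0.19 for Eif2ak2, -1.57 to 0.29 for Isg20, -0.37 to 2.40 for Cmpk2, -0.28 to 0.00565 for Bst2, -0.22 to 0.14 for Ifi203, -0.81 to 1.02 for Ifi204, -0.66 to 0.0941 for Parp9, -0.19 to 0.39 for Parp12, -0.76 to 0.0723 for Parp14 and -0.43 to 0.43 for Dtx3l. These fits take the spread of a group with 1 array from the group with 2. The number of arrays limits every value.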
